A study of Mus musculus with 42 samples.

Results

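The microRNAs described here belong to the miR-297, miR-466, miR-467 and miR-669 families, most of whose mouse genes lie in a large cluster inside the gene Sfmbt2. They were chosen by name alone: every row whose name begins with 1 of these 4 family names, in 2 tables of small RNA sequencing. That gave 22 of 256 microRNAs in the KH2-ISY1 table (8 of miR-669, 6 of miR-467, 6 of miR-466 and 2 of miR-297) and 4 of 264 in the V6.5 table. All members had a value above 0 in every library of their table, as did every other microRNA listed, and all passed the filter on low values (a mean of at least 1).

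A microRNA is cut from a hairpin in a longer primary transcript, first in the nucleus by Drosha with its RNA-binding partner DGCR8 and then in the cytoplasm by Dicer. The short product guides an Argonaute protein to messenger RNAs that pair with its seed, the stretch from base 2 to base 8. The Sfmbt2 cluster is a rodent cluster of many near-identical hairpins, known for its expression in mouse embryonic stem cells (ESCs) and in trophoblast, the lineage of the placenta. Sfmbt2 itself encodes a Polycomb-group protein, is imprinted and is needed for the trophoblast.

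The study followed mouse ESCs as they left the pluripotent state, with ISY1 raised or lowered. KH2-ISY1 cells carry a Flag-ISY1 transgene that doxycycline (Dox) turns on, ISY1 being a protein of the spliceosome, and all 7 small RNA libraries of this line come from such cells. They are cells in serum/LIF without Dox, cells in serum/LIF with Dox, embryoid bodies (EBs) without Dox at day 1 and day 4, cells in 2i/LIF without Dox, and epiblast-like cells (EpiLCs) without Dox at 6 h and 48 h. 2i/LIF holds ESCs in the naive state, serum/LIF holds a more mixed population, and EpiLCs stand for the formative epiblast. The 3 V6.5 libraries come from a wild-type ESC line in serum/LIF, 1 transfected with control small interfering RNA (siCTRL) and 2 with siRNA against Isy1 (siISY1-1 and siISY1-2). Transcripts were measured in 32 polyA libraries of KH2-ISY1 cells with and without Dox and of a DGCR8 knockout ESC line (DGCR8ko), whose Dox state is not given. No condition of KH2-ISY1 cells has more than 1 small RNA library, so the differences between them carry no test, and no sample of cells without the transgene but with Dox was used here.

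In the RefSeq annotation of the mouse genome (GRCm38.p6) Sfmbt2 spans chr2:10370440-10595253 and holds 72 microRNA genes, all of them of these 4 families, within a stretch of 51617 bases (chr2:10466663-10518279). The annotation used here gives no exons, so intronic position is taken from the cluster's usual name. Of the 22 KH2-ISY1 rows 21 matched a RefSeq microRNA gene by name and miR-466a did not. For 18 of the 21 all loci lie inside Sfmbt2. miR-297a has 3 loci inside and 1 on chromosome 7, and 2 members lie elsewhere altogether, miR-467h on chromosome 9 and miR-466i on chromosome 13. The label of an Sfmbt2 cluster therefore holds for most members by position but not for miR-467h and miR-466i. Single loci were annotated for 14 members, whereas miR-669a has 12, miR-467a 10, miR-466b 8, miR-297a 4, miR-466c 3, and miR-669d and miR-669p 2 each. Near-identical copies may share reads, which was not checked here. The KH2-ISY1 rows name neither the copy nor the arm of the hairpin.

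RefSeq held a mature sequence for 2 of the 22 members, and these are the 2 that lie outside Sfmbt2. They are shown 5′ to 3′ with the seed in capitals, because they lie apart from the cluster and were among the members with the largest differences. The first is at chr9:115381898-115381919 and the second, the 3′ arm of its hairpin, at chr13:17747552-17747573, both on the plus strand of GRCm38.p6.
miR-467h: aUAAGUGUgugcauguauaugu
miR-466i-3p: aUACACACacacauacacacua
The seed of miR-467h is shared with miR-668-5p alone among the 1679 mature mouse sequences in the RefSeq table, and that of miR-466i-3p with none. The row for miR-466i does not say whether it counts this arm. The 2 sequences have opposite repeats: the letters UGUGUG, carried by miR-467h across and after its seed, stand in 28 of the 1679 mature sequences (1.67%), and ACACAC, carried by miR-466i-3p, in 11 (0.655%), searched on the strand printed.

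To show the repeat in a whole precursor, the hairpin of miR-467h (chr9:115381819-115381939, plus strand) is printed with its mature sequence in capitals, and that of the miR-297a copy outside Sfmbt2 (chr7:10958437-10958512, minus strand) with a UGUGUG in capitals.
Mir467h hairpin: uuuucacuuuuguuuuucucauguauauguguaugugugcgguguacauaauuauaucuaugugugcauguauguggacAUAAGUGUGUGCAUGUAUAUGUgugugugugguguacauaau
Mir297-1 hairpin: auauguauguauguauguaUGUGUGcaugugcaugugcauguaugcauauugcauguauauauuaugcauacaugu
The hexamer is in 68 of the 1005 mouse hairpins of the table (6.77%).

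The deposited microRNA values are on a scale that is not given, and their sums differ between libraries, from 48534 in EBs at day 4 to 393089 in serum/LIF with Dox. Each comparison is therefore given as deposited and again in parts per 1000000 of the table total (ppm). In the 2i/LIF library all 139 values under 100 lay within 0.06 of a whole multiple of 0.4975, about the rounding of values printed to 1 decimal. That step is taken as 1 read there, so miR-669c with 1002 reads was well measured and miR-467b with 2 reads, miR-466e and miR-669d with 3 and miR-466i with 4 were not. For the other 6 KH2-ISY1 libraries the depth is unknown.

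Together the 22 members made up a small share of the microRNA signal. They summed to 1511.0 in serum/LIF without Dox, 1981.5 with Dox, 338.8 in EBs at day 1, 57.3 at day 4, 1116.9 in 2i/LIF, 798.4 in EpiLCs at 6 h and 695.7 at 48 h. As a share of the table this was 0.545% in serum/LIF, 0.504% with Dox, 0.245% and 0.118% in EBs, 0.284% in 2i/LIF and 0.335% and 0.304% in EpiLCs. By comparison the miR-290 to miR-295 rows, the main ESC microRNAs, held 73.5% of the table in serum/LIF and 24.2% in EBs at day 4. The share of the members was thus highest in the 2 serum/LIF libraries and lowest in EBs at day 4.

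1 member accounts for much of that pattern. miR-669c gave 65% of the members' sum in serum/LIF, 46.4% with Dox and 44.6% in 2i/LIF, but 9.92% and 11.3% in EBs and 14.9% and 9.60% in EpiLCs. Without miR-669c the other 21 summed, in ppm, to 1908 in serum/LIF, 2703 with Dox, 2205 and 1047 in EBs, 1575 in 2i/LIF and 2851 and 2745 in EpiLCs. In ppm the order of the libraries thus changed. With miR-669c the serum/LIF libraries were highest, and without it the EpiLC libraries were at the top, closely followed by serum/LIF with Dox. The total behind ppm includes the miR-290 to miR-295 rows, whose share differed between libraries. They held 74.8% of it in 2i/LIF, 73.5% in serum/LIF and 69.9% with Dox. In EpiLCs they held 43.1% and 40.9%, and in EBs 57.25% and 24.2%. Their part in the order in ppm was not tested. As deposited, serum/LIF with Dox was highest with miR-669c (1981.5) and without it (1062.6, against 679.1 and 628.9 in EpiLCs).

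**Figure D1:**
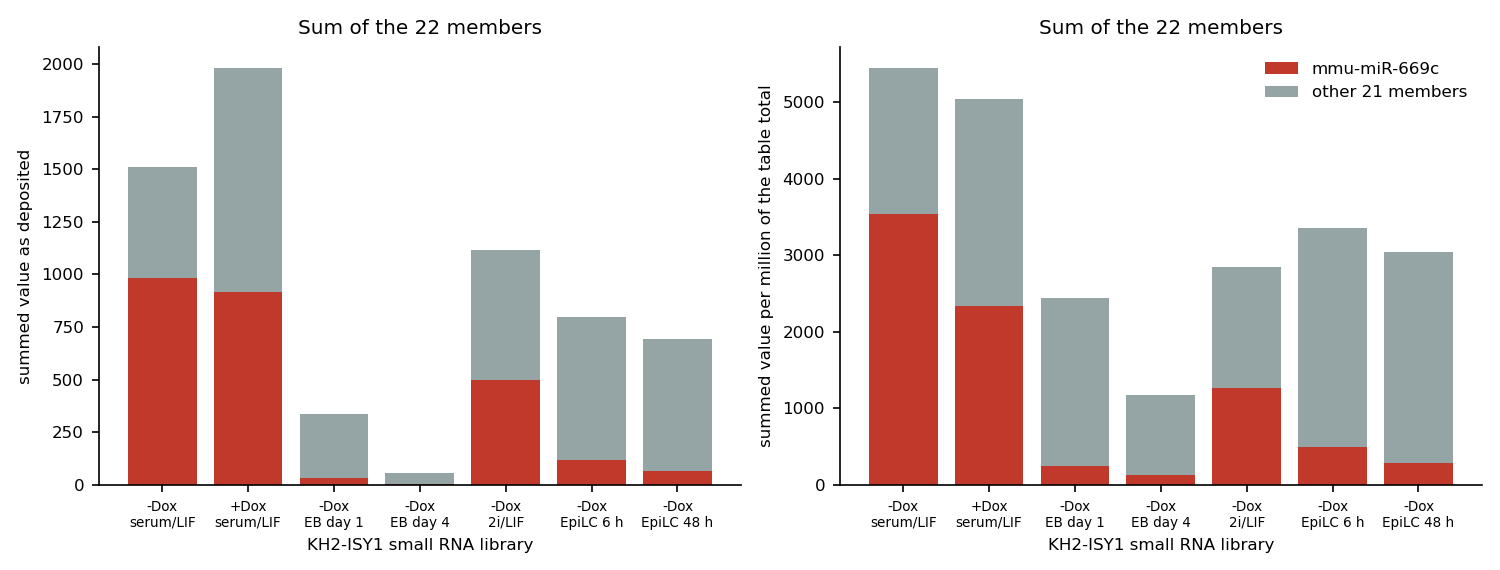
Stacked bars of the members' summed value in each KH2-ISY1 small RNA library, as deposited (left) and in ppm of the table total (right), with miR-669c in red and the other 21 members in grey; each bar is 1 library. The red part is large in the 2 serum/LIF libraries and in 2i/LIF and small in the EB and EpiLC libraries.

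Among the members, miR-669c had the highest mean value. It stood at 981.6 in serum/LIF, 918.9 with Dox, 33.6 in EBs at day 1, 6.5 at day 4, 498.5 in 2i/LIF (95% Poisson interval 468 to 530, counting error only), 119.3 in EpiLCs at 6 h and 66.8 at 48 h. It was high in serum/LIF with and without Dox and in 2i/LIF, and low in the other 4. Its single annotated locus is at chr2:10509296-10509404, toward the far end of the cluster. By mean value it ranked 64th among the 256 microRNAs, so the leading member of the group was itself only a moderately abundant microRNA.

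miR-467a, with 10 annotated copies, was second. Its values were 141.5 in serum/LIF, 246.8 with Dox, 63.6 and 14.8 in EBs, 207.9 in 2i/LIF, and 122.2 and 142.3 in EpiLCs. It was the leading member in both EB and both EpiLC libraries, where miR-669c was low.

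The next miR-467 rows were miR-467c, miR-467e and miR-467d. miR-467c (chr2:10473931-10474027) read 78.3 in serum/LIF, 140.7 with Dox, 18.3 and 4.2 in EBs, 17.4 in 2i/LIF, and 47.1 and 38.1 in EpiLCs. miR-467e (chr2:10505721-10505807) read 37.0, 76.8, 28.1, 4.6, 16.4, 52.8 and 41.8 in the same order of libraries. miR-467d (chr2:10507630-10507714) read 23.0, 39.9, 11.0, 3.2, 19.4, 48.1 and 53.8. All 3 were lower in 2i/LIF than in either EpiLC library, also in ppm. miR-467a was highest in 2i/LIF among the libraries without Dox as deposited, but in ppm it was 529 there and 621 in EpiLCs at 48 h.

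Of the miR-669 rows after miR-669c, miR-669a with its 12 copies read 14.5 in serum/LIF, 105.8 with Dox, 41.7 and 2.3 in EBs, 24.9 in 2i/LIF, and 51.5 and 78.6 in EpiLCs. miR-669p, with 2 copies, read 54.7, 37.1, 16.3, 4.0, 30.3, 65.2 and 45.4, and miR-669o (chr2:10514300-10514395) read 21.9, 56.4, 16.1, 2.3, 16.9, 52.6 and 29.3. miR-669a had its lowest value outside the EBs in serum/LIF without Dox, where miR-669c had its highest. miR-669p was 1 of 3 members, with miR-669c and miR-467b, that were lower with Dox than without.

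miR-669f and miR-669b, the 2 single-locus members nearest the start of the cluster, shared a different pattern. miR-669f (chr2:10467229-10467349) read 25.5 in serum/LIF, 58.7 with Dox, 14.7 and 2.2 in EBs, 80.6 in 2i/LIF, and 49.1 and 37.2 in EpiLCs. miR-669b (chr2:10467790-10467886) read 12.7, 29.7, 8.2, 1.2, 110.0, 11.5 and 8.3. Both had their highest value in 2i/LIF, which no other member did as deposited. The next single-locus member along the gene, miR-669l (chr2:10468971-10469068), was lower in 2i/LIF (4.5) than in serum/LIF (13.2), so the pattern was not shared by the whole start of the cluster.

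The 12 members of lower mean ranged from 0.4 to 43.7 over the 7 libraries. They comprised all 6 miR-466 rows, both miR-297 rows, miR-467b, miR-467h, miR-669d and miR-669l. miR-467b had the lowest mean of all 256 microRNAs, and miR-669d ranked 255th. Values this low rest on few reads, as the counts in 2i/LIF show.

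**Figure D2:**
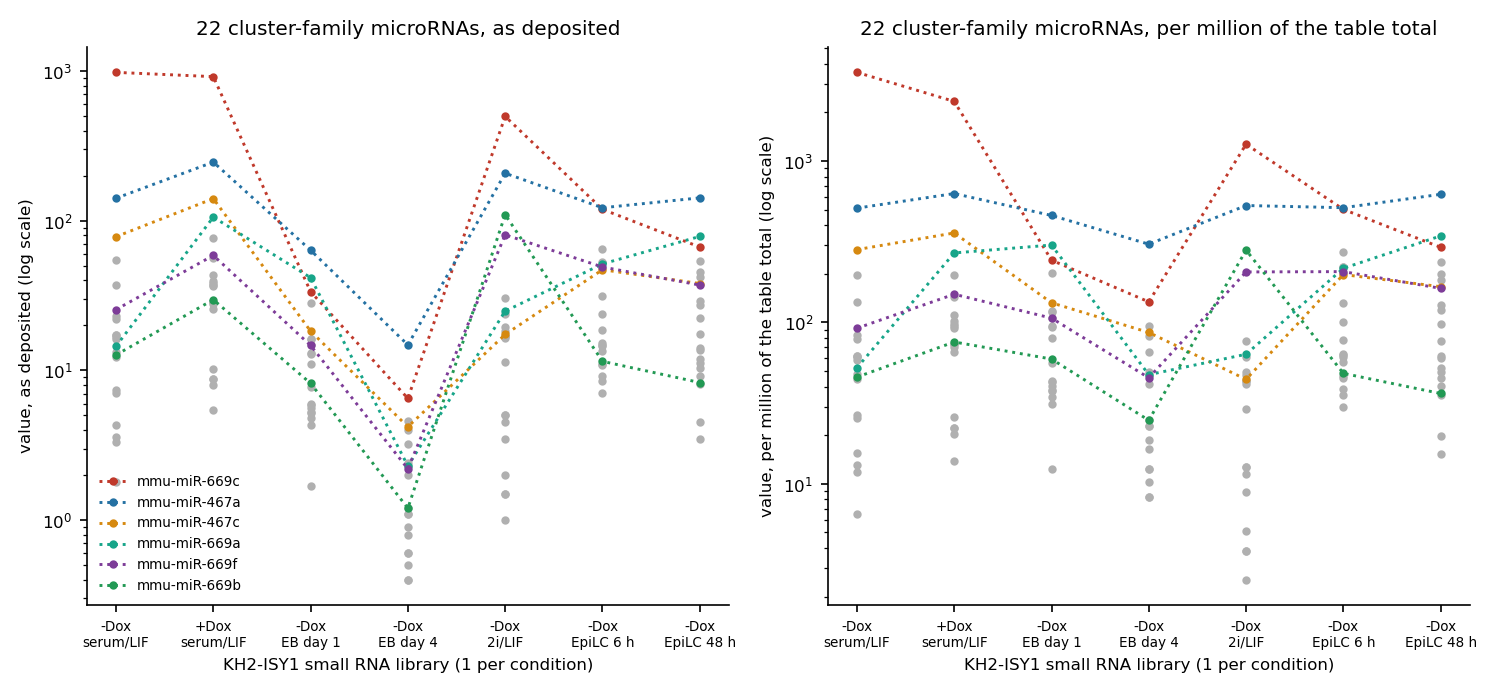
Value of each of the 22 members in the 7 KH2-ISY1 small RNA libraries on a log scale, as deposited (left) and in ppm of the table total (right); each point is 1 member in 1 library, 6 named members are coloured and joined by dotted lines, and the rest are grey. As deposited, all members are lowest in EBs at day 4, miR-669c lies highest in serum/LIF and 2i/LIF, and miR-669b and miR-669f are highest in 2i/LIF.

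The comparison of serum/LIF cells with and without Dox asks how induced ISY1 goes with the level of these microRNAs. As deposited, 13 of the 22 members were at least 2-fold higher with Dox (on the scale of value + 1, as for all such counts here), against 22.7% of all microRNAs, and 0 were at least 2-fold lower, against 1.95%. The members' median log2 difference was 1.05, beside 0.57 over all 256. The Dlk1-Dio3 rows, another large microRNA cluster, stood as high, with 19 of 34 at least 2-fold higher and a median of 1.17 (10 of 34 and 0.68 in ppm). In ppm of the table total the counts were 3 higher and 1 lower, against 7.81% and 6.64% of all microRNAs, with a median of 0.63 beside 0.10. Under both scalings 19 of the 22 were above 0, against 82.4% of all microRNAs as deposited and 55.5% in ppm. The share above 0 was thus near that of the table as deposited and higher than it in ppm. The number past 2-fold moved with the scale and also with the pseudocount, being 4 as deposited with a pseudocount of 10. The members' median lay above the table's by 0.48 as deposited, 0.53 in ppm and 0.34 with a pseudocount of 10.

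The largest difference was that of miR-669a, 105.8 with Dox against 14.5 without, a ratio of 7.30 as deposited and 5.15 in ppm. No other microRNA of the table had a larger log2 difference under either scaling. At the other end miR-669p was 1.47-fold lower (2.09-fold in ppm), and miR-669c stood at a ratio of 0.936. In the matching polyA libraries Sfmbt2 was 93.3 normalised reads with Dox and 101.6 without, and Isy1 was 5096 with Dox and 328 without. The host transcript was thus slightly lower with Dox where most members were higher, and Isy1 was higher as the labels say.

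In EBs the members were compared with serum/LIF cells, the starting population. At day 1, 3 of 22 were at least 2-fold higher and 9 at least 2-fold lower as deposited, against 21.9% and 33.6% of all microRNAs. The median was -0.51 beside -0.22 over all. In ppm the direction of the median turned, to 0.42 beside 0.76, with 6 higher and 3 lower against 44.1% and 18% of all. The group as a whole therefore had no direction at day 1 that held under both scalings.

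Single members did. miR-669c went from 981.6 to 33.6, 29.2-fold lower as deposited and 14.6-fold lower in ppm. miR-669a went the other way, from 14.5 to 41.7, 2.88-fold higher and 5.76-fold in ppm. miR-466i, which lies outside Sfmbt2, went from 17.2 to 1.7, 10.1-fold lower and 5.05-fold in ppm. miR-669c and miR-669a, both inside Sfmbt2, thus stood on opposite sides of their serum/LIF values at day 1, while Sfmbt2 transcript was 101.6 at day 0 and 129.6 at day 1.

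At day 4 all 22 members were below their serum/LIF value as deposited, as were 77% of all microRNAs. In 21 of them the difference was at least 2-fold, against 58.6% of all, and 0 were at least 2-fold higher, against 12.5%. The median was -2.73 beside -1.44 over all. In ppm 9 were at least 2-fold lower, against 15.6%, and 1 higher, against 47.3%, with a median of -0.80 beside 0.85. The members lay under the table's median in both scalings, by 1.28 and 1.65 on the log2 scale. With a pseudocount of 10 in place of 1 the gap as deposited was 0.30, between medians of -1.18 and -0.89. Of the other groups, the miR-290 to miR-295 rows (7 of 7 at least 2-fold lower, median -2.11) and the let-7 rows (8 of 9, median -1.65) lay the same way as deposited, with medians of 0.39 and 0.49 in ppm. The miR-302 and miR-367 rows lay the other way, with 4 of 4 at least 2-fold higher under both scalings.

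miR-669c again had the largest difference, 6.5 at day 4 against 981.6, 151-fold lower as deposited and 26.4-fold in ppm, the lowest log2 difference of the 256 microRNAs in both. The members outside Sfmbt2 were also among the lowest: miR-467h went from 16.8 to 0.4 and miR-466i from 17.2 to 0.5. In ppm they went from 60.6 to 8.24 and from 62.0 to 10.3. Both values at day 4 lie near the lowest value of the table, 0.3, in a library of unknown depth. miR-467a, with its 10 copies, was 9.56-fold lower as deposited and 1.67-fold in ppm (141.5 against 14.8). Sfmbt2 transcript was 47.5 normalised reads at day 4, its lowest value in the EB table. In bulk RNA, fewer cells that express a gene and less RNA per cell cannot be told apart.

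The EpiLC comparisons ask how the members stood as naive cells entered the formative state. At 6 h, 14 of the 22 were at least 2-fold higher than in 2i/LIF and 2 at least 2-fold lower, against 48% and 23% of all microRNAs, with a median of 1.18 beside 0.94. In ppm the counts were 16 and 2, against 60.5% and 19.1%, and the median 1.95 beside 1.68. At 48 h, 10 were higher and 3 lower as deposited, against 46.1% and 22.7%, with a median of 0.82 beside 0.85. In ppm 15 were higher and 2 lower, against 62.9% and 16.8%, with a median of 1.67 beside 1.64. The members as a group were close to the whole table at both hours.

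They did not behave alike within it. miR-669b went from 110.0 in 2i/LIF to 11.5 at 6 h and 8.3 at 48 h, 9.57-fold and 13.3-fold lower (5.80-fold and 7.73-fold in ppm). miR-669c went from 498.5 to 119.3 and 66.8, 4.18-fold and 7.46-fold lower (2.53-fold and 4.35-fold in ppm). miR-467e was 3.22-fold higher at 6 h (5.31-fold in ppm) and miR-669a 3.16-fold higher at 48 h (5.41-fold in ppm). miR-466i was 4.25-fold higher at 6 h (8.5 against 2.0), but its 2i/LIF value rests on 4 reads with an interval of 0.542 to 5.10. So miR-669b and miR-669c were lower in EpiLCs under both scalings while most members were higher.

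Between the 2 undifferentiated states, 2 members were at least 2-fold higher in 2i/LIF than in serum/LIF and 6 at least 2-fold lower, against 33.6% and 21.9% of all microRNAs. The median was -0.24 beside 0.41 over all. In ppm 2 were higher and 9 lower, against 27.3% and 27% of all, with a median of -0.74 beside -0.06. The 2 higher members were miR-669b, 8.66-fold (6.12-fold in ppm), and miR-669f, 3.16-fold (2.23-fold in ppm). miR-466i had the largest difference downward, 2.0 against 17.2, but the value of 2.0 rests on 4 reads. miR-467c was 4.50-fold lower (17.4 against 78.3). In this comparison the let-7 rows lay higher, 6 of 9 at least 2-fold under both scalings, and 0 of 9 lower.

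**Figure D3:**
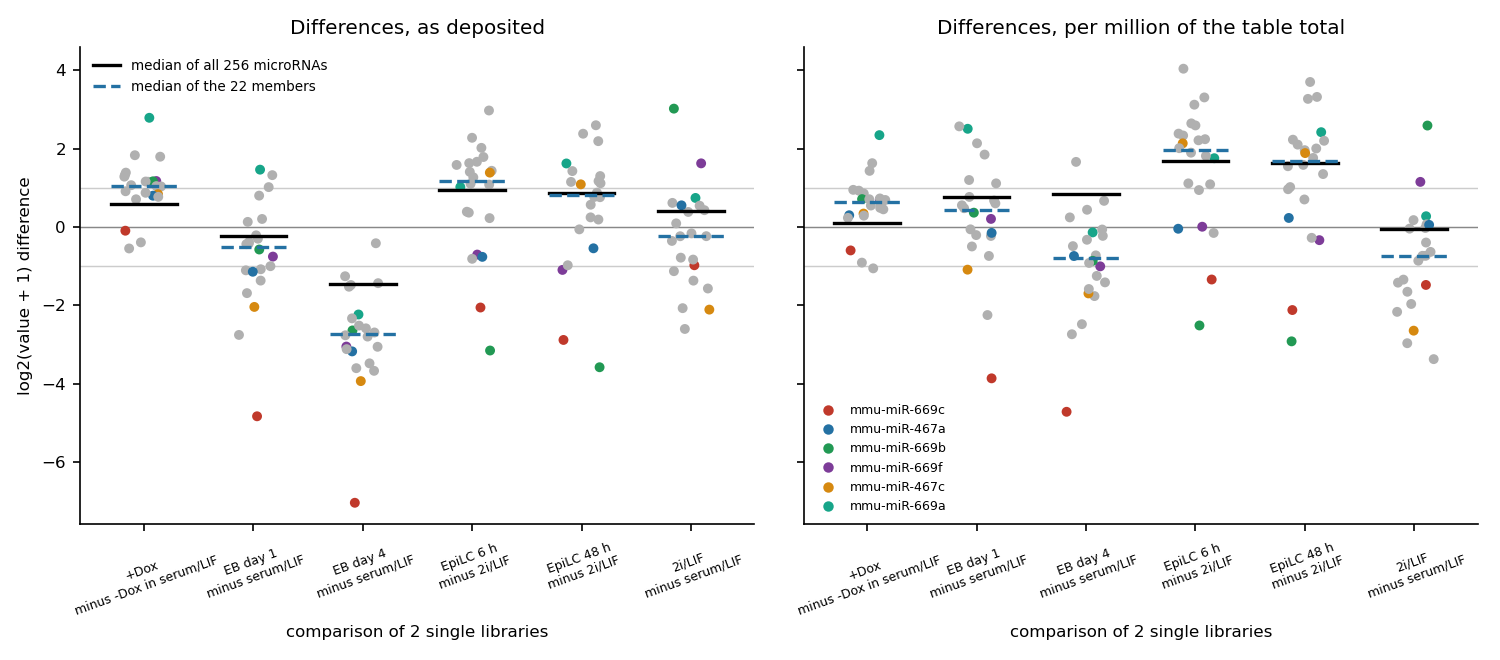
Log2(value + 1) difference of each of the 22 members in 6 comparisons of 2 single libraries, as deposited (left) and in ppm of the table total (right); points are members, with 6 named members coloured, the solid bar is the median of all 256 microRNAs and the dashed bar that of the members. The red point of miR-669c lies far below the rest in both EB comparisons, and the green point of miR-669b lies far above in the comparison of 2i/LIF with serum/LIF.

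As deposited, EBs at day 4 were the lowest library for all 22 members and for 58.6% of all microRNAs, and serum/LIF with Dox was the highest for 12 members and for 21.5% of all. In ppm the lowest library was 2i/LIF for 11 members and EBs at day 4 for 10, against 36.3% and 10.2% of all microRNAs, and serum/LIF for the remaining 1. The highest library in ppm was EpiLC 6 h for 7 members (18.4% of all microRNAs), serum/LIF with Dox for 6 (5.47%), EBs at day 1 for 4 (14.5%), EpiLC 48 h for 3 (12.1%), and serum/LIF (5.47%) and 2i/LIF (14.5%) for 1 each. The library with Dox was thus the peak for most members as deposited, while in ppm the peaks were spread over 6 libraries.

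Knockdown of Isy1 in V6.5 cells is the only small RNA contrast with more than 1 library in a group. The table lists 4 members under hairpin names. miR-669c read 196.2 with siCTRL and 176.2 and 244.8 with siISY1-1 and siISY1-2. miR-467c read 33.4, then 13.6 and 17.3, and miR-467e read 13.7, then 9.1 and 6.1. The last, mir-467a-7, 1 of the 10 miR-467a hairpins (chr2:10493510-10493592), read 12.3, then 0.7 and 0.5. Both knockdown libraries lay under the control for 3 of the 4, against 79.9% of all microRNAs, and on either side of it for miR-669c. In ppm both lay under the control for 1 of the 4, mir-467a-7, against 46.6% of all microRNAs, and above it for 2, against 31.8%.

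The whole table was lower in these libraries, with a median log2 difference of -1.06 and -1.24, and the sizes below are set beside that shift. The p-values below test a difference from 0 as deposited, so they take in the shift and do not test a difference from it. In limma's test across all 264 microRNAs, with 1 residual degree of freedom, 0 of the 4 members passed an adjusted p of 0.05, as did 0% of the table. An unadjusted p under 0.05 was found for 1 of the 4, against 49.6% of the table. That member was mir-467a-7, with a log2 difference of -3.06 ± 0.31 (SE) and a limma adjusted p of 0.0704. It was 17.6-fold and 24.6-fold lower than the control as deposited, and 9.68-fold and 10.3-fold in ppm. It ranked last of the 264 microRNAs by mean value, and its 0.5 is the lowest value in the table. The ratios thus rest on values at the floor of the table, from 1 of 10 copies that may share reads. miR-467c (-1.07 ± 0.39, adjusted p = 0.113) and miR-467e (-0.80 ± 0.42, adjusted p = 0.199) lay near the table's shift. miR-669c (0.08 ± 0.36, adjusted p = 0.865) lay above it, and in ppm its value was 510 with siCTRL and 832 and 1525 with siISY1. Scaling turned the sign for miR-467e, which read 35.6 in ppm with siCTRL and 43.0 and 38.0 with siISY1, both above the control. Fitted in ppm, the log2 differences were 1.14 for miR-669c, -0.06 for miR-467c, 0.18 for miR-467e and -2.97 for mir-467a-7.

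**Figure D4:**
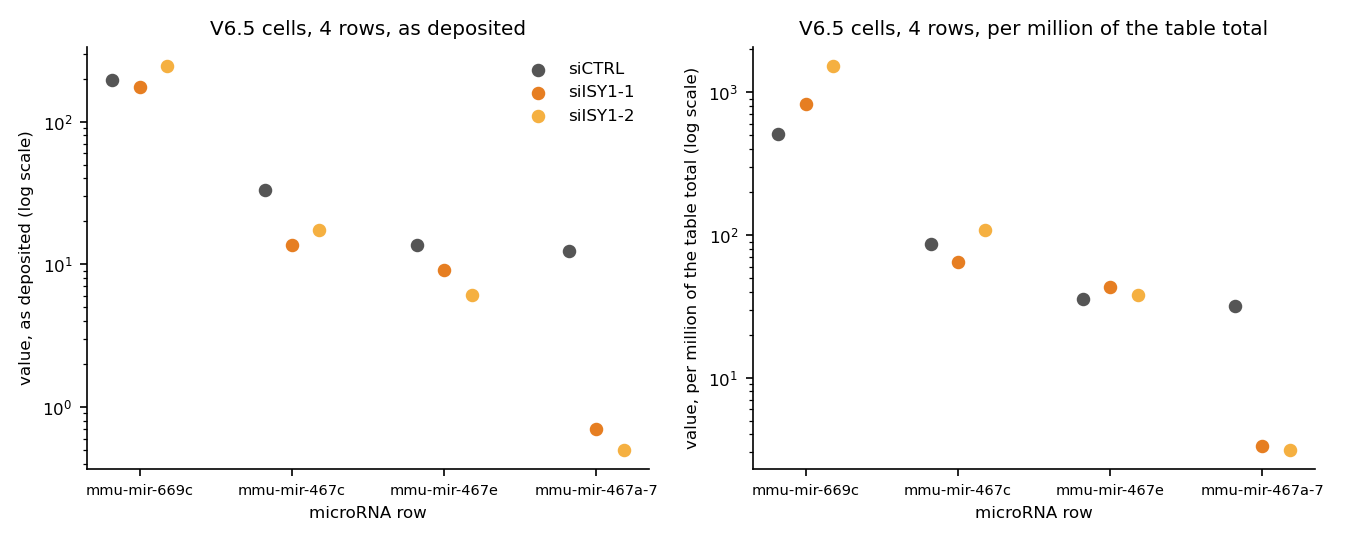
Values of the 4 members in the 3 V6.5 libraries on a log scale, as deposited (left) and in ppm of the table total (right); each point is 1 library (grey siCTRL, orange siISY1-1 and siISY1-2). Only mir-467a-7 lies far below its control in both panels, while miR-669c lies above it in both siISY1 libraries in ppm.

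The polyA tables show the host transcript, which contains the cluster's primary RNA but is read here as Sfmbt2 messenger RNA. Along the EpiLC course without Dox, Sfmbt2 stood at 180.9 normalised reads at 0 h, 116.1 at 6 h, 108.4 at 12 h, 123.8 at 18 h, 88.2 at 24 h, 70.6 at 30 h, 60.4 at 36 h, 78.8 at 48 h, 117.5 at 72 h and 119.1 at 96 h. It was highest in naive cells, lowest at 36 h and in between at the end. A spline fit over the 10 libraries found a change with time (limma adjusted p = 0.0108; 50.1% of 16206 genes changed), with a fitted difference of -0.39 on the log2 scale between 96 h and 0 h. Without the 0 h library the difference was 0.16 and the adjusted p was 0.0746. At the hours of the small RNA libraries, 0, 6 and 48 h, Sfmbt2 and miR-669c were both in descending order, while the sum of the other 21 members in ppm was lowest at 0 h.

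The naive marker list (6 of 6 genes measured: Klf4, Tbx3, Tfcp2l1, Esrrb, Zfp42 and Nr5a2) summed to 24968 normalised reads at 0 h and 465.5 at 96 h, and the formative list (5 of 5: Fgf5, Pou3f1, Dnmt3b, Sox3 and Otx2) to 260.0 at 0 h, where Fgf5 and Sox3 were listed at 0, and 2855 at 96 h. The trophoblast list (7 of 7: Cdx2, Elf5, Eomes, Krt8, Tfap2c, Hand1 and Ascl2) ranged from 342.3 to 1618.5 over the course, with Hand1 at 0 at 48 h and Cdx2 at 0 at 72 h and 96 h. The endoderm list (3 of 6 genes in this table) ranged from 7.8 to 84.3. The part of these cell states in the Sfmbt2 values was not tested.

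With Dox, Sfmbt2 read 124.3 at 24 h, 113.2 at 48 h, 316.5 at 72 h and 384.6 at 96 h, each above the library without Dox at the same hour. Over the 4 pairs its log2 difference averaged 1.03 ± 0.22 (SE). The limma adjusted p was 0.0542 and missed the threshold, in a fit where 2.83% of 16117 genes were called. Without the 24 h pair it was 1.21 and was called (adjusted p = 0.0343). The difference widened with hour, by 0.0187 ± 0.0044 per hour on the log2 scale (limma adjusted p = 0.0483; 3.51% of genes called), a test added after the data had been seen and run with the main settings only. It was much the same at 24 h and 48 h and widened mostly between 48 h and 72 h. The libraries at 24 h and 48 h held 6.17 to 6.39 M reads and that at 72 h without Dox 11.4 M. No depth was recovered for 72 h with Dox or for either library at 96 h, and the part of depth was not tested. In the fit of change with hour the Dox difference of Isy1, the induced gene, narrowed, at -0.0269 per hour (limma adjusted p = 0.0250), from 3038 with Dox and 422.7 without at 24 h to 707.7 and 417.9 at 96 h. Over these hours the naive list summed to 2259 to 10112 with Dox and 465.5 to 7471 without, the formative list to 948.6 to 1907 with Dox and 1558 to 3136 without, and the endoderm list to 50.0 to 100.1 with Dox and 7.8 to 37.3 without. The trophoblast list summed to 365.8 to 704.6 with Dox, where Tfap2c was at 0 at 24 h, and 438.9 to 1227 without. The part of these markers in the result was not tested.

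In the DGCR8 knockout line, which lacks the partner that Drosha needs to cut hairpins, Sfmbt2 was low at every hour. It read 14.4 at 0 h, 19.5 at 6 h, 18.1 at 24 h, 13.6 at 48 h, 21.2 at 72 h and 22.7 at 96 h, against 78.8 to 180.9 in KH2-ISY1 cells at the same hours. Across 6 pairs the log2 difference averaged -2.58 ± 0.19 (SE; limma adjusted p = 5.09e-05), in a fit that called 42.4% of 16267 genes, 24.3% lower and 18.1% higher. The difference did not pass a test for change with hour (limma adjusted p = 0.536; 1.51% of genes called). Naive markers summed to 1520.5 to 32792 in the knockout and 465.5 to 24968 in KH2-ISY1 cells at the same hours, trophoblast markers to 439.3 to 1699 (Hand1 at 0 at 24 h and Cdx2 at 0 at 48 h) and 438.9 to 1618.5, and endoderm markers to 12.5 to 59.4 and 7.8 to 84.3. The knockout is another ESC line, so line and knockout cannot be told apart. Dgcr8 transcript itself read 36.8 to 44.5 in the knockout and 75.2 to 231.0 in the matched libraries.

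Cells returned to 2i/LIF from EpiLCs (cESCs) gave scattered values. Sfmbt2 read 383.3 and 120.0 in cESCs from 24 h and 48 h EpiLCs without Dox, and 163.2 and 451.4 in those from EpiLCs that had been given Dox. The order of the 2 hours was opposite with and without Dox, at 1 library each and with no test.

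In the EB table without Dox, Sfmbt2 read 101.6 at day 0, 129.6 at day 1, 106.2 at day 2, 47.5 at day 4, 140.6 at day 8, 218.9 at day 10 and 197.8 at day 13. It was lowest at day 4, where the members were also lowest, and highest at day 10. Over the same days the trophoblast list summed to 572.9, 333.2, 192.2, 711.9, 2021, 2613 and 3889, and the endoderm list (6 of 6 in this table) to 96.1, 53.6, 46.7, 282.5, 2529, 2218 and 5134. The naive list summed to 13549.3, 12051.4, 3614.9, 590.6, 617.1, 726.1 and 806.7, and was thus lowest at day 4, as Sfmbt2 was. The formative list was highest at day 4, at 1710.0, against 379.3 at day 0 and 357.8 at day 13. The part of these lists in the values of Sfmbt2 and of the members was not tested, and small RNA was not analysed here beyond day 4.

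**Figure D5:**
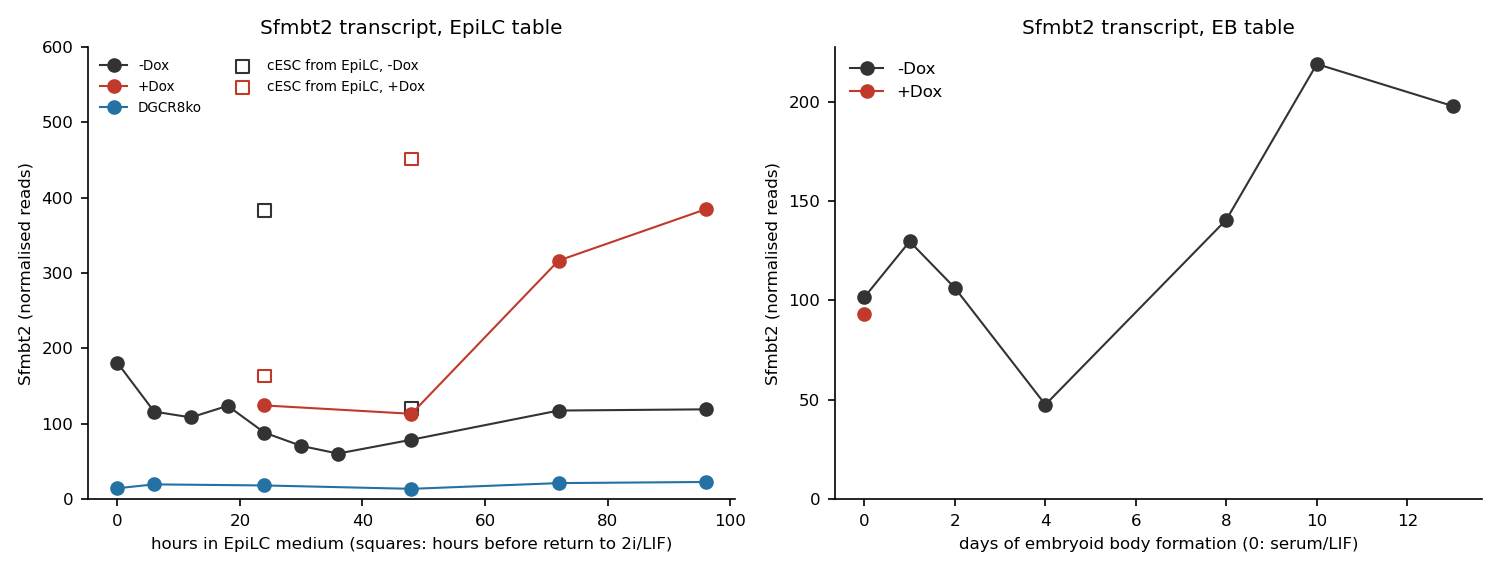
Sfmbt2 transcript in normalised reads by hour in EpiLC medium (left: without Dox in black, with Dox in red, DGCR8ko in blue, open squares for cESCs at the hour of their return to 2i/LIF) and by day of EB formation (right); each point is 1 library. The knockout lies at 13.6 to 22.7 throughout, and the libraries with Dox at 72 h and 96 h (316.5 and 384.6) lie above all others of the EpiLC course.

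Among 6 genes of microRNA production and use, Isy1, Dgcr8, Drosha, Dicer1, Xpo5 (the exporter of hairpins) and Ago2 (an Argonaute), 4 were called for a change with time along the EpiLC course without Dox. The fitted end was above the start in all 4 and below it in 0, beside 25.4% and 24.8% of all genes. The p tests any change with time, and the sizes are fitted 96 h minus fitted 0 h, which was not itself tested. The 4 genes were Dicer1 (1.06 on the log2 scale, limma adjusted p = 0.00382), Isy1 (0.79, adjusted p = 0.0255), Ago2 (0.63, adjusted p = 0.00319) and Xpo5 (0.53, adjusted p = 0.0160). Without the 0 h library Isy1 was not called (0.31, limma adjusted p = 0.559), and with no intensity trend neither Isy1 (adjusted p = 0.0639) nor Xpo5 (adjusted p = 0.0571) was. With Dox limma called 0 of 6, 1 of them (Isy1) at an unadjusted p under 0.05, against 22.8% of all genes, and edgeR on the 24 h and 48 h pairs called Isy1. Isy1 had a log2 difference of 1.45 ± 0.31 (SE), with the same limma adjusted p of 0.0542 as Sfmbt2. In the knockout Dgcr8 fell by 1.48 (limma adjusted p = 0.000703) and Dicer1 rose by 0.50 (adjusted p = 0.00120), and the other 4 did not pass. That is 2 of 6, beside the 42.4% of all genes called in this fit. The Dicer1 call was lost without the block of hour (limma adjusted p = 0.122).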

How the data were processed

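Small RNA was sequenced in 10 libraries and polyA RNA in 32. Per the labels' protocols, RNA was extracted with Trizol and made into libraries with a stranded TruSeq kit (polyA) or a New England Biolabs kit (small RNA). Per the submitters' processing notes, Bowtie and the builds GRCm38 and mm9 were used, with no version or role. The counter, microRNA reference set and handling of reads that match several copies are not given in the sources used here. The deposited values of all 4 tables are a signal made by the authors whose scale is not stated. In 24 of 32 polyA libraries (5.8 to 56.05 M reads) at least 95% of low values lay within 0.1 of a read of whole multiples of 1 step, so polyA values were called normalised reads; in 1 further library the step found was only the printed decimal, and it was not used.

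Members, lists and rules were chosen with earlier results of these data known. Values were analysed as log2(value + 1) for features with a mean of at least 1. Tests used limma 3.58.1 (empirical Bayes with intensity trend, R 4.3.3), two-sided, adjusted by Benjamini-Hochberg over all features, threshold 0.05. The siISY1, Dox and knockout fits were also run on simulated data. Changes planted there were larger than the Sfmbt2 differences reported here, and no shift was shared by a whole library. Those runs therefore do not show how smaller changes are called. The spline, the change with hour and edgeR were not simulated. The EpiLC course used a spline with 3 degrees of freedom. Its p tests any change with time, while the size given is the fitted last hour minus the fitted first. Paired fits had hour as a block, 1 library per hour and arm, so spread over hours stands in for replicate spread. Hour pairs the libraries by design, as the same time point of the course. edgeR 4.0.16 was run on recovered reads. The labels do not say that siISY1-1 and siISY1-2 came from separate cultures, so that spread may be technical, and the lone siCTRL library was assumed to vary like them. Named in full were the 10 members of highest mean, and members with the largest difference of at least 2-fold in a comparison among those with a mean of at least 10; miR-669l, miR-467b, miR-467h, miR-466i and miR-669d were also named after their values were seen, for position or low level. Other comparison groups (miR-17-92 and paralogs, Dlk1-Dio3) had, at EB day 4, medians of 0.43 and 0.28 as deposited. Intervals cover counting error only, at a level of 95%. Alternatives were scaling to the table total or by median ratio, other pseudocounts and filters, no intensity trend, no block, and each library or pair left out.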

Additional observations from a re-analysis of the deposited data

Results flagged for a closer look

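The difference in Sfmbt2 transcript between EpiLCs with and without Dox differed between time points by a test of that change: it widened by 0.0187 per hour on the log2 scale over 24, 48, 72 and 96 h (limma adjusted p = 0.0483, 4 pairs, 2 residual degrees of freedom). In order of hour the values were 124.3, 113.2, 316.5 and 384.6 with Dox and 88.2, 78.8, 117.5 and 119.1 without. The Dox difference of Isy1 narrowed over the same hours, at -0.0269 per hour (limma adjusted p = 0.0250). For Sfmbt2 the difference was much the same at 24 h and 48 h and widened mostly between 48 h and 72 h. The slope was fitted with the main settings only. No microRNA group had enough libraries to test for a library far from the others.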

How the results depend on the processing

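The microRNA medians and counts move with the scale of each library (ppm: parts per 1000000 of the table total) and with the pseudocount. For Dox in serum/LIF the members' median log2 difference (1.05) was 0.63 in ppm, 0.53 with median-ratio scaling and 0.77 with a pseudocount of 10, and the 13 members at least 2-fold higher became 3, 3 and 4, with 1 lower in ppm and by median ratio in place of 0. At EB day 1 the median (-0.51) reversed to 0.42 in ppm and was -0.21 by median ratio, -0.31 with a pseudocount of 10 and -1.0 among members with a mean of at least 10. There the 3 higher became 6 in ppm and 1 each with a pseudocount of 10 and a mean of at least 10, and the 9 lower became 3 in ppm and 5 each by median ratio and with a pseudocount of 10. At EB day 4 the median (-2.73) was -0.80 in ppm, -1.64 by median ratio, -1.18 and -3.27 with pseudocounts of 10 and 0.1, and -3.05 with a mean of at least 10, with 1 higher in place of 0 and 9 lower in place of 21 in ppm. At EpiLC 6 h the median (1.18) was 1.95 in ppm, 0.48 by median ratio, 0.68 with a pseudocount of 10 and 1.02 with a mean of at least 10, the 14 higher became 5, 4 and 9 under the last 3, and the 2 lower became 5 by median ratio. At 48 h the median (0.82) was 1.67 in ppm, 0.20 by median ratio, 0.41 and 1.00 with pseudocounts of 10 and 0.1, and 0.57 with a mean of at least 10. The 10 higher became 3 by median ratio, 4 with a pseudocount of 10 and 6 with a mean of at least 10, and the 3 lower became 5 by median ratio. For 2i/LIF against serum/LIF the median (-0.24) was -0.74 in ppm, -0.35 by median ratio and -0.12 with a pseudocount of 10, where 2 in place of 6 were lower. The cause was not tested beyond the scale itself.

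For siISY1 the median of the 4 members (-0.93) reversed to 0.058 in ppm and 0.16 by median ratio, was -0.60 with a pseudocount of 10 and -0.50 with a mean of at least 10, and ranged from -0.98 to -0.89 with either siISY1 library left out (no test). miR-467e reversed to 0.18 in ppm and 0.27 by median ratio, and miR-467c to 0.053 by median ratio. With a pseudocount of 10, 1 member, mir-467a-7, was called (-1.07, limma adjusted p = 0.0480), as were 71 of 264 microRNAs against 0 otherwise. No paired analysis was possible for the microRNAs because no 2 groups share more than 1 replicate number.

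For Sfmbt2 the Dox difference ranged from 0.81 to 1.21 with a pair left out (adjusted p 0.0343 to 0.30) and was called without the 24 h pair (1.21). Without the replicate block of hour it stayed 1.03 with a limma adjusted p of 0.582, and 0 genes of 16117 were called in place of 456 (1276 at an unadjusted p under 0.05). edgeR on the recovered reads of the 24 h and 48 h pairs, added after seeing the data, gave 0.49 (adjusted p = 0.206). The knockout difference ranged from -2.66 to -2.39 with a pair left out, was -2.13 with a pseudocount of 10 and -2.58 without the block of hour, and was called in every alternative run. The course ranged from -0.57 to 0.16 with a library left out, reversed without 0 h (0.16), and was -0.57 by edgeR over 0 to 72 h (adjusted p = 0.00907). Depth was recovered for the 2i/LIF library alone among the KH2-ISY1 small RNA libraries and was not sought in the V6.5 ones. Counting error was therefore not set beside the other values.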
